A study of Mus musculus with 27 samples.

Results

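Lipid associated macrophage genes are a set of transcripts that macrophages switch on when they take up and digest lipid, first described as a state of macrophages in fat, atherosclerotic plaque and diseased brain and later found in injured lung. The 8 genes taken here are Spp1, Gpnmb, Trem2, Apoe, Fabp5, Lgals3, Cd9 and Ctsk, taken by symbol out of 21742 rows of a table of linear RNA. All 8 were in the table and all 8 passed the filter on low values, which kept 17433 genes with 1 TPM or more in no fewer than 5 libraries (TPM is a share of all transcripts, corrected for their length).

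The 27 libraries were made from total RNA of the left lobe of the lung. The mice were BALB/c AnNHsd, 87 days of age. The Dex_CDGHDM group (n = 6) was sensitized with house dust mite extract (HDM) plus the mucosal adjuvant cyclic di-GMP (CDG) and given the glucocorticoid dexamethasone, 3 mg/kg into the peritoneum on days 11, 18 and 25 of a protocol of 35 days. The AM155 group (n = 6) was given an antisense miR-155 oligonucleotide carried by lipid nanoparticles, 2 mg/kg into a vein on those same 3 days; the labels of these 6 libraries do not say in words that the mice were sensitized. The CDG_HDM group (n = 10) was sensitized with HDM and CDG and had no drug, and the Saline group (n = 5) was unsensitized. No group given vehicle or empty nanoparticles is analysed here. The labels number the samples of a group without saying that each is a separate mouse, so p-values measure the spread between these samples.

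The products of these genes have different roles, and only some of them handle lipid. Trem2 is a surface receptor for lipids and lipoproteins that signals through the adaptor Tyrobp, and Apoe encodes apolipoprotein E, the carrier with which macrophages export cholesterol. Fabp5 binds fatty acids in the cytosol, Gpnmb is a lysosomal glycoprotein under control of the MiT TFE transcription factors, and Ctsk encodes cathepsin K, a lysosomal protease that cuts collagen and elastin. Spp1 encodes osteopontin, a secreted ligand of CD44 and several integrins, Lgals3 encodes galectin 3, a lectin that marks damaged lysosomes, and Cd9 is a tetraspanin of the cell surface. Several are also made by other cells: Cd9 is also abundant in endothelium, epithelium and platelets, Ctsk in osteoclasts and fibroblasts, and Lgals3 and Fabp5 in epithelium. In RNA of a whole lobe, fewer cells of a type and less RNA per cell cannot be told apart.

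In the GENCODE M21 annotation (GRCm38) the 8 protein coding genes lie at chr5:104435118-104441050 on the plus strand (Spp1), chr6:49036546-49070929, plus (Gpnmb), chr17:48346401-48354147, plus (Trem2), chr7:19696109-19699188, minus (Apoe), chr3:10012548-10016607, plus (Fabp5), chr14:47367751-47386160, plus (Lgals3), chr6:125460266-125494791, minus (Cd9) and chr3:95499256-95509362, plus (Ctsk). They share no locus. Promoter windows of 300 bases (250 before and 50 after a start site) were taken from RefSeq, build GRCm38.p6, and matched 7 of the 8; Fabp5 was the one not matched. The 200 bases before the start site are printed for Spp1, Gpnmb and Trem2, since these 3 genes were higher in CDG_HDM and hold matches to motifs of myeloid transcription factors in or beside that stretch. Capitals mark a match to AACCACA (RUNX), GAGGAAGT (PU.1) or TGANTCA (AP-1).
Spp1, chr5:104434911-104435110, plus strand: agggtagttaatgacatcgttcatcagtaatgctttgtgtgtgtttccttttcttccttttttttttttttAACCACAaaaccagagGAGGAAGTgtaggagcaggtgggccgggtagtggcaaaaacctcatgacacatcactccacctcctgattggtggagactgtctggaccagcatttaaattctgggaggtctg
Gpnmb, chr6:49036318-49036517, plus strand: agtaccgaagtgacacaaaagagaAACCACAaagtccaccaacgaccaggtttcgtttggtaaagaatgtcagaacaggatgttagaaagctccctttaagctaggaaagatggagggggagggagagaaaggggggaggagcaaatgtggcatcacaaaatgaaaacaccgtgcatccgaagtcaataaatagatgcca
Trem2, chr17:48346201-48346400, plus strand: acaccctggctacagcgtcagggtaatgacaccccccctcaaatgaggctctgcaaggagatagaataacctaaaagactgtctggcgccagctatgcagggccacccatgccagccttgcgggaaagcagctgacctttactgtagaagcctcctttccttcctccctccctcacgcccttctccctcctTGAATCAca

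In Spp1 the RUNX match began at position -129 and the PU.1 match at position -113, counted from the start site. In Gpnmb the RUNX match began at position -176, and an AP-1 match lay just past the start site, outside the printed stretch. In Trem2 the AP-1 match began at position -9. Over the 27025 genes of the promoter table, 6.09% held AACCACA, 3.69% GAGGAAGT and 8.97% TGANTCA on either strand of a window, so matches of this kind are common. The pattern TCANGTG, a loose form of the MiT TFE motif that allows any base at N, was matched in Lgals3 and in 16.1% of all genes. The match in Lgals3 read TCAGGTG. The E-box CACGTG (8.09% of all genes), the STAT motif TTCNNNGAA (9.55%) and the palindromic glucocorticoid response element (0.0481%) had no match in the windows of the 7 genes. No 2 of the printed matches overlapped, the motifs were picked with the sequences in view, and a match is a description of letters, not of binding.

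The oligonucleotide given to AM155 mice is directed against miR-155, a microRNA of activated immune cells. The mature strand miR-155-5p is printed from RefSeq (chr16:84714143-84714165, plus strand), with the seed, bases 2 to 8, in capitals.
mmu-miR-155-5p: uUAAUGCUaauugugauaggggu

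The complement of that seed, AGCATTA, was searched in the longest annotated 3′ untranslated region of each gene. It was found in 0 of the 8 genes and in 1612 of 17107 tested genes (9.42%). These letters are therefore not in the regions searched, which says nothing of other routes from miR-155 to these genes.

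Sensitized lung held more RNA of 7 of the 8 genes and less of Cd9. In CDG_HDM against Saline, Trem2, Apoe, Spp1, Gpnmb, Ctsk, Fabp5 and Lgals3 rose, between 1.67-fold and 5.74-fold, and Cd9 fell (limma, Benjamini-Hochberg adjusted p of 0.05 or less). Of all 17433 genes tested, 9.35% passed as higher and 22.8% as lower. For the 7 that rose, every CDG_HDM library lay above every Saline library, which 5.07% of all genes tested did. The median log2 change of the 8 was 1.40, against -0.10 for all genes.

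Trem2, the lipid receptor, had the largest log2 change of the 8. It had 18.2, 28.7 and 49.8 TPM in the lowest, median and highest CDG_HDM library, against 3.76, 5.12, 3.75, 5.04 and 4.60 TPM in the Saline libraries. Every sensitized library stood well clear of the unsensitized ones. The log2 change of TPM + 1 was 2.52 ± 0.182 (SE; 5.74-fold, adjusted p = 1.54e-11), the rank of 15 from the top among 17433 genes.

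Apoe was the most abundant of the 8 in every group. Its level was 1744, 2815 and 4194 TPM in the lowest, median and highest CDG_HDM library, against 769.6, 585, 749.9, 906 and 788 TPM in Saline. The groups did not overlap. The log2 change was 1.93 ± 0.177 (3.81-fold, adjusted p = 1.52e-09), and Apoe stood as the gene of rank 21 by mean TPM in CDG_HDM, against rank 100 in Saline.

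Spp1, the osteopontin gene, had 65.3, 109 and 139 TPM in the lowest, median and highest CDG_HDM library, against 29.3, 34.1, 28.3, 35.4 and 44.9 TPM in Saline. All sensitized libraries were higher than all unsensitized ones. The log2 change was 1.60 ± 0.153 (3.02-fold, adjusted p = 3.68e-09).

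Ctsk and Gpnmb, both of the lysosome, rose by like amounts and differed in spread. Ctsk had 34.1, 54.4 and 75.9 TPM in the lowest, median and highest CDG_HDM library, against 19.7, 21.1, 18.7, 19.3 and 23.5 TPM in Saline (log2 change 1.38 ± 0.161, adjusted p = 1.01e-07). Gpnmb had 15.7, 25.8 and 65.5 TPM in CDG_HDM, against 7.75, 10.7, 10.6, 9.68 and 10.4 TPM in Saline (log2 change 1.42 ± 0.252, adjusted p = 5.98e-05). Neither gene overlapped between the groups. Gpnmb was the most uneven of the 8 among CDG_HDM libraries, with an SD of 47.8% of its mean against 12.5% in Saline, and library CDG_HDM 4 alone was far above the rest.

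Fabp5 and Lgals3 were abundant before sensitization and had smaller log2 changes. Fabp5 had 148, 184 and 243 TPM in the lowest, median and highest CDG_HDM library, against 126, 128, 92.3, 100.3 and 108 TPM in Saline (log2 change 0.77 ± 0.125, adjusted p = 1.84e-05). Lgals3 had 184, 226 and 351 TPM in CDG_HDM, against 134, 159, 145, 149 and 158 TPM in Saline (log2 change 0.74 ± 0.148, adjusted p = 0.000258). The sensitized libraries were all higher for both genes, by a narrower gap than for Trem2 or Apoe.

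Cd9 was the exception. It had 179, 243 and 290.5 TPM in the lowest, median and highest CDG_HDM library, against 291, 267, 307, 315 and 318 TPM in Saline. The groups overlapped: 8 of 10 sensitized libraries were below the lowest Saline library. The log2 change was -0.34 ± 0.110 (adjusted p = 0.0190), and the call was lost with the linear table rescaled to a common sum (-0.17, adjusted p = 0.0847), without Saline 8 (adjusted p = 0.0507) and without Saline 10 (adjusted p = 0.0544).

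**Figure D1:**
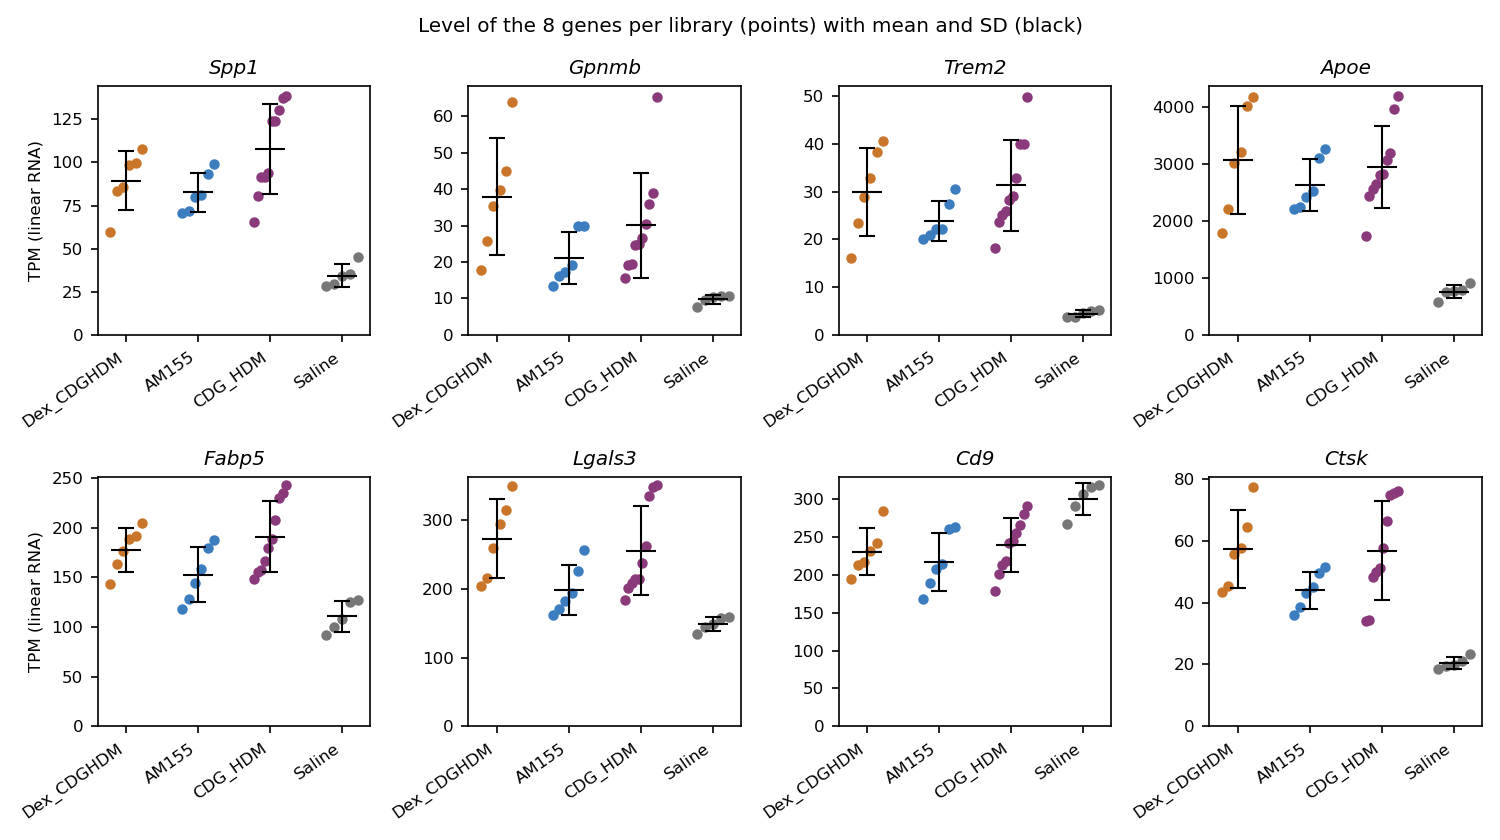
Level of each gene in TPM of linear RNA (linear axis) per library, points by group, with the mean and SD in black. For all genes but Cd9 the Saline points sit below every CDG_HDM point; among Dex_CDGHDM, AM155 and CDG_HDM the points overlap for all 8 genes.

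The median of all genes depended on the scaling. As deposited, it was at -0.10 and 29.1% of the genes called were higher; the median was 0.01 with median-of-ratios scaling, -0.01 with quantile normalization and 0.04 with a common sum, where 51%, 45.6% and 62.8% of calls were higher. The 7 rises passed under all 3, with a median of the 8 genes of 1.51, 1.47 and 1.55.

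The genes of the macrophage as a whole rose too, and the 8 were set against them. Of 8 pan macrophage markers, 7 rose and 0 fell in CDG_HDM, with a median log2 change of 1.32, among them Aif1 (2.40 ± 0.201), Mpeg1 (1.63 ± 0.125), Adgre1 (1.51 ± 0.147) and Cd68 (1.39 ± 0.139). Their summed level ran from 4476 to 7974 TPM in CDG_HDM, against 2965 to 3453 TPM in Saline. The genes of monocyte derived and interstitial macrophages rose in 9 of 12 cases and fell in 2, with Ms4a7 at 2.98 ± 0.185 and C1qb at 2.67 ± 0.173. The genes of resident alveolar macrophages were split, 3 higher and 4 lower of 11 tested, with Chil3 at 1.28 ± 0.230 and Atp6v0d2 at 1.14 ± 0.111, against Cidec at -1.79 ± 0.342 and Fabp1 at -1.19 ± 0.371; their summed level overlapped, 395 to 886 TPM in CDG_HDM against 541 to 642 TPM in Saline. Cidec is also in the list of adipocyte markers and Atp6v0d2 in that of lysosomal genes. The part of adipocytes in the fall of Cidec was not tested.

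When each gene was taken relative to the mean of the 8 pan macrophage markers in the same library, the 8 fell into 3 sets. Trem2 (1.29 ± 0.133, adjusted p = 5.86e-11), Apoe (0.70 ± 0.125, adjusted p = 3.27e-06) and Spp1 (0.36 ± 0.104, adjusted p = 0.00140) were higher in CDG_HDM than in Saline relative to that mean, as were 0.574% of all genes. Gpnmb (0.19 ± 0.202, adjusted p = 0.367) and Ctsk (0.15 ± 0.105, adjusted p = 0.173) did not pass in either direction. Fabp5 (-0.46 ± 0.116), Lgals3 (-0.50 ± 0.109) and Cd9 (-1.57 ± 0.153) were lower relative to the markers, as were 97.9% of all genes. The 3 sets were the same when the 12 markers of interstitial macrophages were used instead, with Trem2 at 1.29, Apoe at 0.70 and Spp1 at 0.37. That is no separate check, since both marker means rose almost equally. In log2(TPM + 1) the pan macrophage mean went from 5.33 in Saline to 6.56 in CDG_HDM, and the interstitial mean from 4.31 to 5.54. Among the interstitial markers, Ms4a7 and C1qb each rose more than Trem2.

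Within groups, 7 of the genes varied together and Cd9 did not. As deviations from the group mean over the 27 libraries, the pairs among the 7 had Pearson's r between 0.544 (Spp1 with Gpnmb) and 0.880 (Lgals3 with Ctsk), while Cd9 had r between -0.275 and 0.0397 with the others. With the mean of the pan macrophage markers, r was 0.906 for Ctsk, 0.881 for Spp1, 0.811 for Lgals3, 0.810 for Apoe, 0.790 for Trem2, 0.653 for Fabp5, 0.625 for Gpnmb and 0.0335 for Cd9. These are descriptions over libraries that share depth, composition and the TPM scale, and no p is given.

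**Figure D2:**
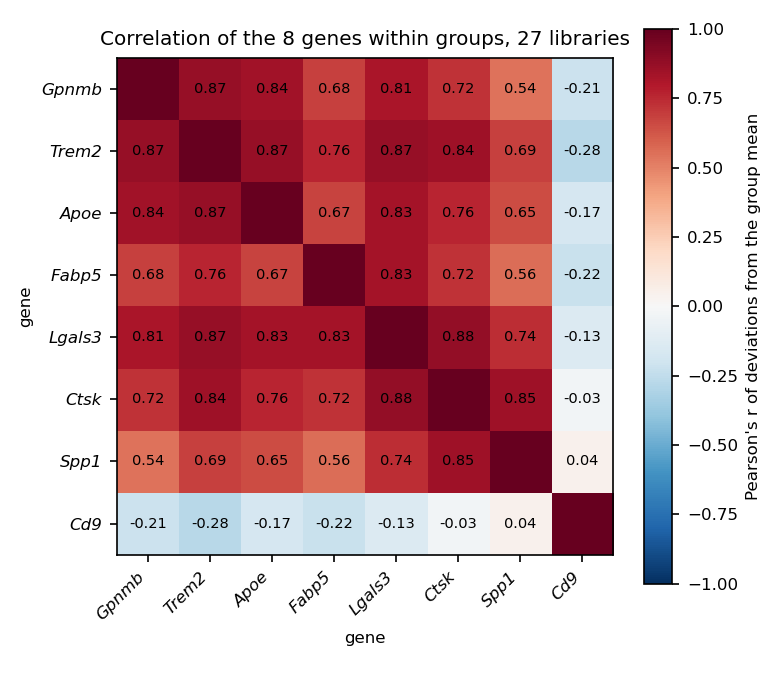
Pearson's r between the 8 genes (both axes, no unit) of deviations from the group mean in log2(TPM + 1), over 27 libraries; colour runs from -1 to 1. The 7 genes other than Cd9 form a block with r from 0.544 to 0.880, and the row of Cd9 lies between -0.275 and 0.0397.

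The genes most like each member over the 27 libraries, by r of log2(TPM + 1), included several of the lysosome and of myeloid cells. This r takes in the differences between groups. Trem2 was closest to the cathepsin gene Ctss (0.989), Apoe to the inhibitory Fc receptor gene Fcgr2b (0.984) and the sphingolipid activator gene Psap (0.981), and Ctsk to Cd68 (0.980) and the integrin gene Itgax (0.970). Spp1 was closest to the lysozyme gene Lyz2 (0.972), Gpnmb to the cathepsin D gene Ctsd (0.961), Lgals3 to the tetraspanin gene Cd63 (0.937) and Fabp5 to Ssr4, of the secretory pathway (0.937). Cd9 was closest to Anxa3 (0.960). Within groups, Ctsd remained the nearest to Gpnmb (0.927), Psap was the nearest to Apoe (0.928), Cd68 the nearest to Trem2 (0.921) and to Ctsk (0.918), and Lyz2 the nearest to Spp1 (0.895). There, Ctsz was the nearest to Lgals3 (0.909), Ssr4 to Fabp5 (0.855) and Pros1 to Cd9 (0.958).

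Partners of Trem2 and enzymes of the lysosome were next compared between CDG_HDM and Saline. In a list of Trem2 signalling and the Trem family, 5 of 10 rose and 1 fell: the adaptors Tyrobp (0.86 ± 0.133) and Hcst (0.95 ± 0.179), the kinase Syk (0.54 ± 0.113), the phospholipase Plcg2 (0.96 ± 0.132) and the phosphatase Inpp5d (0.77 ± 0.136) were higher, and Treml1, of platelets, was lower (-0.40 ± 0.122). Tyrobp had 310.4 TPM on average in CDG_HDM, against 168 TPM in Saline. Trem1, the inflammatory receptor of neutrophils and monocytes, was at -0.21 ± 0.103 (adjusted p = 0.116).

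Of 15 cathepsins and their inhibitors, 11 rose and 0 fell, with a median log2 change of 0.65. Ctss, which processes the invariant chain of class II, was at 2.31 ± 0.162, Ctsz at 1.09 ± 0.133, Ctsd at 0.94 ± 0.152 and Ctsb at 0.91 ± 0.121. Cystatin C (Cst3), an inhibitor of cathepsins, was at 0.41 ± 0.0938. Under the 3 scalings 13 to 14 genes of this list rose. Of 15 lysosomal and MiT TFE genes, 10 rose and 0 fell (13 to 15 higher under the 3 scalings), with the acid phosphatase Acp5 at 1.49 ± 0.154, Cd68 at 1.39 ± 0.139, Tfec at 1.21 ± 0.108 and Psap at 1.20 ± 0.136. Among the transcription factors, Mitf was at 0.44 ± 0.0991 (adjusted p = 0.000965), Tfeb at 0.13 ± 0.115 (adjusted p = 0.405) and Tfe3 at -0.01 ± 0.0833 (adjusted p = 0.952). Of 15 other genes of the lipid associated state that were tested, out of 16 listed, 11 rose and 0 fell, with the elastase Mmp12 at 2.37 ± 0.313, Itgax at 1.52 ± 0.140, Cd83 at 1.40 ± 0.116 and Capg at 1.26 ± 0.126; under quantile normalization 12 rose and 1 fell.

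The genes that take up, store and export lipid did not move as one. Of 12 genes of uptake and storage, 4 rose and 4 fell (6 and 4 under each of the 3 scalings). The scavenger receptors Msr1 (1.84 ± 0.182) and Olr1 (0.67 ± 0.135), the lysosomal lipase Lipa (0.51 ± 0.0891) and the cholesterol esterifying enzyme Soat1 (0.48 ± 0.0844) were higher. The lipid droplet gene Hilpda (-1.05 ± 0.182), the triglyceride enzyme Dgat2 (-0.92 ± 0.176), the fatty acid transporter Cd36 (-0.91 ± 0.155) and Acsl1 (-0.41 ± 0.129) were lower. Plin2, the coat protein of lipid droplets, was at 0.31 ± 0.127 (adjusted p = 0.0649) and passed as higher under the 3 scalings.

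Around Apoe, 4 of 15 receptor and cholesterol export genes rose and 3 fell. The transporters Abca1 (0.47 ± 0.111) and Abcg1 (0.30 ± 0.101), the receptor Lrp8 (0.45 ± 0.107) and the apolipoprotein Apoc1 (0.41 ± 0.125), encoded next to Apoe, were higher. Vldlr (-0.56 ± 0.129), Pltp (-0.52 ± 0.114) and the liver X receptor gene Nr1h3 (-0.27 ± 0.104) were lower; Nr1h3 did not pass under median-of-ratios scaling or a common sum. The receptor Lrp1 (-0.13 ± 0.0965, adjusted p = 0.337) did not pass. Under the 3 scalings 6 to 7 genes of this list rose and 2 to 3 fell.

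Fabp5 parted from its family. Of 5 other fatty acid binding genes, 0 rose and 3 fell: Fabp4, of fat and endothelium, was at -2.70 ± 0.466, Fabp3, of heart muscle, at -2.09 ± 0.258 and Fabp1 at -1.19 ± 0.371. Fabp4 averaged 16.1 TPM in CDG_HDM, against 94.3 TPM in Saline. Adipocyte markers fell in 5 of 6 cases (4 under the scalings), Fabp4 among them, with a summed level of 21.9 to 106 TPM in CDG_HDM, against 209.6 to 353 TPM in Saline; their part in the result for Fabp4 was not tested.

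The receptors of osteopontin were split, with 2 of 8 higher and 2 lower. Cd44 (0.77 ± 0.105) and Itga4 (0.49 ± 0.107), both of leukocytes, rose, while Itgb3 (-0.36 ± 0.101) and Itgb1 (-0.34 ± 0.114) fell; Itgav was at -0.04 ± 0.0965 (adjusted p = 0.768). Itgb1 did not pass with a common sum, and 4 genes of the list passed as higher under each of the 3 scalings. Of 7 galectin genes, 2 rose, Lgals3bp (0.88 ± 0.135) and Lgals1 (0.60 ± 0.122), and 3 fell, Lgals2 (-0.70 ± 0.179), Lgals12 (-0.32 ± 0.0841) and Lgals4 (-0.30, adjusted p = 0.0202), the last not with a common sum. Of 10 tetraspanin genes, 4 rose, the leukocyte genes Cd53 (0.85 ± 0.125) and Cd37 (0.67 ± 0.191), the lysosomal Cd63 (0.62 ± 0.114) and Cd82 (0.37 ± 0.0897), and 2 fell, Tspan8 (-0.69 ± 0.126) and Cd151 (-0.48 ± 0.108).

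Several cell types that also make these genes had lower marker levels in sensitized lung. Endothelial markers fell in 6 of 6 cases, with a summed level of 521 to 1072 TPM in CDG_HDM, against 1349 to 1631 TPM in Saline, and markers of smooth muscle fell in 5 of 5 and of club and ciliated cells in 5 of 6 (4 with quantile normalization). Cd9 moved the same way as these lists, and their part in its change was not tested. Platelet markers fell in 2 of 4 cases tested, Ppbp (-0.93 ± 0.234) and Itga2b (-0.61 ± 0.149), and rose in 0 (Pf4 rose with a common sum). Pf4, which is also in the list of interstitial macrophages, was at 0.16 ± 0.117 (adjusted p = 0.327) and made up most of their summed level, 52.1 to 77.4 TPM in CDG_HDM, against 58.4 to 84.4 TPM in Saline. Markers of T cells rose in 5 of 6 cases, of B and plasma cells in 3 of 5 and of dendritic cells in 3 of 7 (1 fell), and those of neutrophils fell in 6 of 7. Alveolar type 2 markers rose in 3 of 8 cases (4 to 6 under the scalings) and fell in 0. For Ctsk, 0 of 3 osteoclast markers tested passed as deposited (Dcstamp, at 0.25, passed as higher under the 3 scalings) and Calcr, the calcitonin receptor gene, stayed under 1 TPM in all libraries; fibroblast markers had a summed level of 838 to 1554 TPM in CDG_HDM, against 911 to 1036 TPM in Saline, with 3 of 7 higher and 2 lower (1 lower under the 3 scalings).

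**Figure D3:**
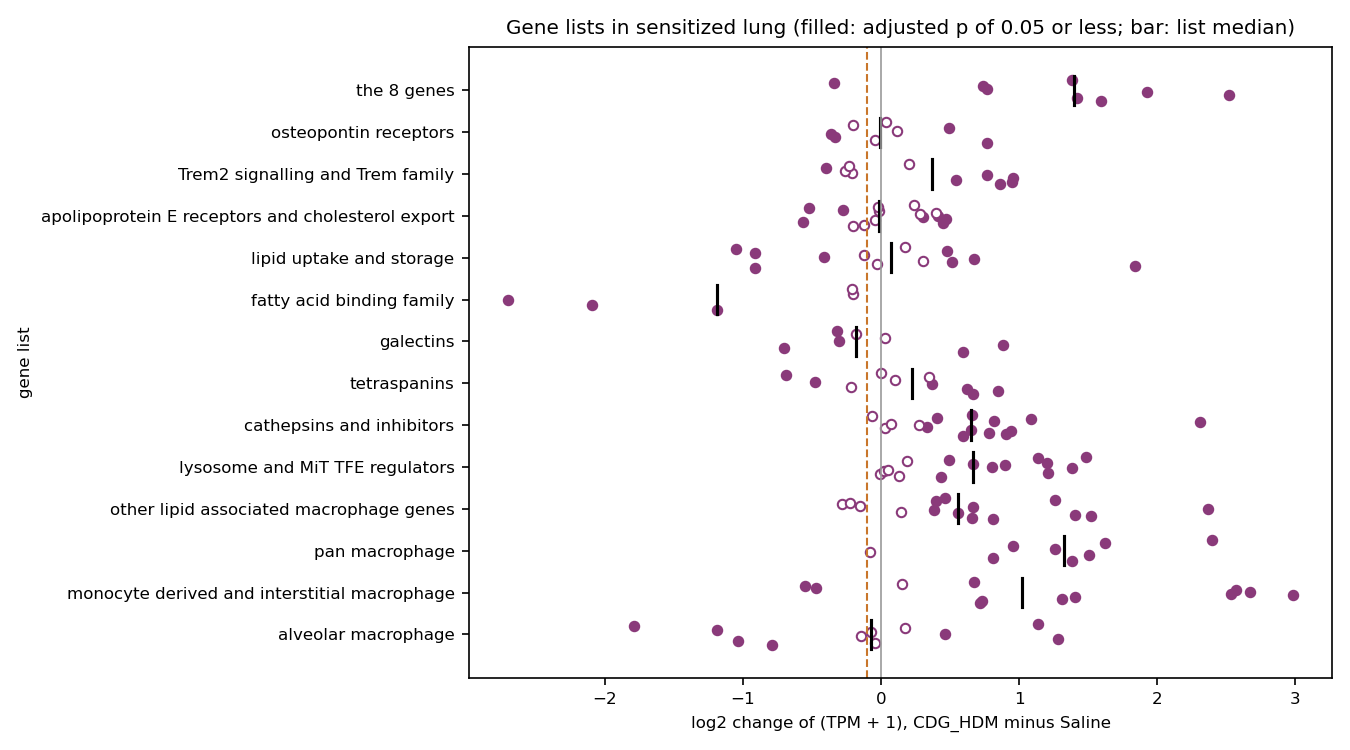
Log2 change of (TPM + 1), CDG_HDM minus Saline (linear axis of log2 values), 1 point per gene in each list; filled points passed an adjusted p of 0.05, bars mark list medians and the dashed line the median of all genes, -0.10. The 8 genes have a median of 1.40, near that of the pan macrophage markers (1.32), and the fatty acid binding family lies to the left.

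The next question was whether antisense miR-155 changed these genes. None of the 8 passed in AM155 against CDG_HDM (limma adjusted p from 0.599 to 0.774), where 0.103% of all genes passed, 18 in number. All 8 values were negative, as were those of 82.4% of all genes, and the median of the 8 was -0.33, against -0.08 for all genes. With median-of-ratios scaling, quantile normalization and a common sum the median of the 8 was -0.25, -0.21 and -0.21, all 8 still negative; with a common sum that of all genes was 0.03. With the values as deposited, 4 of the 8 were lower at an unadjusted p under 0.05 (Spp1, Fabp5, Lgals3 and Ctsk), against 7.24% of all genes in either direction. In the exact permutation test of each gene alone (two-sided), 1 of the 8 had p under 0.05, Fabp5 (p = 0.0366), with exact p of 0.0526 for Spp1, 0.0578 for Lgals3 and 0.108 for Ctsk. In mean TPM, AM155 was the lowest of the 3 groups Dex_CDGHDM, AM155 and CDG_HDM for each of the 8 genes. Most genes went this way on the log2 scale. AM155 was below CDG_HDM for 82.4% of all genes, and Dex_CDGHDM was below AM155 for 23.8%.

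Spp1 had 70.8, 80.6 and 98.9 TPM in the lowest, median and highest AM155 library, against 65.3, 109 and 139 TPM in CDG_HDM. The AM155 libraries lay within the CDG_HDM range, and 0 of 6 reached the CDG_HDM median. The log2 change was -0.35 ± 0.145 (adjusted p = 0.644), with a 95% interval of 0.640-fold to 0.964-fold. Fabp5 had 118, 151 and 187 TPM in AM155, against 148, 184 and 243 TPM in CDG_HDM, and 3 of 6 AM155 libraries were below the lowest CDG_HDM library (log2 change -0.32 ± 0.117, adjusted p = 0.599, interval 0.679-fold to 0.946-fold).

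Lgals3 likewise had 3 of 6 AM155 libraries below the lowest of CDG_HDM. It had 162, 188 and 256 TPM in AM155, against 184, 226 and 351 TPM in CDG_HDM (log2 change -0.34 ± 0.139, adjusted p = 0.635, interval 0.648-fold to 0.961-fold). Ctsk had 36.1, 44.1 and 51.4 TPM in AM155, against 34.1, 54.4 and 75.9 TPM in CDG_HDM (-0.32 ± 0.151, adjusted p = 0.681, interval 0.647-fold to 0.994-fold). For Ctsk, too, 0 of 6 AM155 libraries reached the CDG_HDM median.

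Gpnmb had the lowest value of the 8 on the log2 scale and the widest error. It had 13.4, 18.3 and 29.9 TPM in AM155, against 15.7, 25.8 and 65.5 TPM in CDG_HDM (-0.45 ± 0.237, adjusted p = 0.684, interval 0.524-fold to 1.03-fold; -0.31 without CDG_HDM 4). Trem2 had 20.0, 22.1 and 30.6 TPM in AM155, against 18.2, 28.7 and 49.8 TPM in CDG_HDM (-0.34 ± 0.172, adjusted p = 0.684, interval 0.620-fold to 1.01-fold). Apoe (-0.14 ± 0.167, interval 0.717-fold to 1.15-fold) and Cd9 (-0.14 ± 0.104, interval 0.782-fold to 1.05-fold) were nearest to 0. The intervals of Gpnmb, Trem2, Apoe and Cd9 held 1, and those of the other 4 lay below it. These intervals are for values as deposited, and other scalings moved those 4 genes down in the order by model p. Counted from the lowest p, Fabp5 went from rank 309 as deposited to 1963, 2098 and 1771 under median-of-ratios, quantile and common sum scaling. In the same order, Spp1 went from 604 to 2469, 2898 and 2794, and Lgals3 from 546 to 2202, 2719 and 2139. Ctsk went from 1126 to 3481, 3943 and 3804.

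No macrophage marker was called between these groups. Pan macrophage markers had a summed level of 4715 to 5851 TPM in AM155 (median 5489), against 4476 to 7974 TPM in CDG_HDM (median 6559). Of these markers 0 of 8 were called, and their median log2 change was -0.06. Relative to those markers the 8 genes ran from -0.36 (Gpnmb) to -0.05 (Apoe and Cd9), all with an adjusted p of 1.00. Relative to the 12 markers of interstitial macrophages, whose summed level was 1008 to 1294 TPM in AM155, against 741 to 1613 TPM in CDG_HDM, they ran from -0.50 (Gpnmb) to -0.19 (Apoe and Cd9), with adjusted p from 0.287 to 0.575. The median summed level of the interstitial markers was 1150 TPM in AM155, against 1133 TPM in CDG_HDM. For the alveolar macrophage markers it was 589 TPM, against 733 TPM, with a median log2 change of -0.21. The partner genes Tyrobp (-0.03 ± 0.125) and Cd44 (-0.07 ± 0.0991) did not pass, nor did any of 111 companion genes tested. Neutrophil markers were higher, with 2 of 7 called, S100a8 (1.41 ± 0.243, adjusted p = 0.00738) and S100a9 (1.37 ± 0.246, adjusted p = 0.0104), and a summed level of 616 to 1743 TPM in AM155, against 249 to 639 TPM in CDG_HDM; their part in the values of the 8 genes was not tested.

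Dexamethasone was compared in the same way. None of the 8 passed in Dex_CDGHDM against CDG_HDM (limma, all with an adjusted p of 1.00), none had an unadjusted p under 0.05, and 0.00574% of all genes passed, 1 in number. Of the 8 values 4 were negative, and the median was -0.01, as for all genes. Among 111 companion genes 0 passed, and 7 had an unadjusted p under 0.05.

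Gpnmb and Spp1 had the values farthest from 0. Gpnmb had 17.8, 37.6 and 64.1 TPM in the lowest, median and highest Dex_CDGHDM library, against 15.7, 25.8 and 65.5 TPM in CDG_HDM (0.33 ± 0.237, interval 0.897-fold to 1.76-fold). Spp1 had 59.7, 92.2 and 108 TPM in Dex_CDGHDM, against 65.3, 109 and 139 TPM in CDG_HDM (-0.25 ± 0.145, interval 0.684-fold to 1.03-fold). Without single libraries Gpnmb ran from 0.16 (without Dex_CDGHDM 3) to 0.52 (without Dex_CDGHDM 4), and Spp1 from -0.33 (without CDG_HDM 3) to -0.14 (without Dex_CDGHDM 2). The groups overlapped for both genes, though 0 of 6 Dex_CDGHDM libraries reached the CDG_HDM median for Spp1 and 5 of 6 were above it for Gpnmb.

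The remaining 6 were within 0.11 of 0 on the log2 scale. Trem2 had 16.1, 30.8 and 40.5 TPM in Dex_CDGHDM, against 18.2, 28.7 and 49.8 TPM in CDG_HDM (-0.07 ± 0.172, interval 0.749-fold to 1.22-fold). Apoe had 1799, 3118 and 4182 TPM in Dex_CDGHDM, against 1744, 2815 and 4194 TPM in CDG_HDM (0.04 ± 0.167, interval 0.810-fold to 1.30-fold). The ranges of the groups nearly coincided. The intervals were 0.796-fold to 1.11-fold for Fabp5, 0.885-fold to 1.31-fold for Lgals3, 0.834-fold to 1.12-fold for Cd9 and 0.830-fold to 1.27-fold for Ctsk, so changes of 1.5-fold lie outside the intervals of these 4, of Trem2 and of Apoe.

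**Figure D4:**
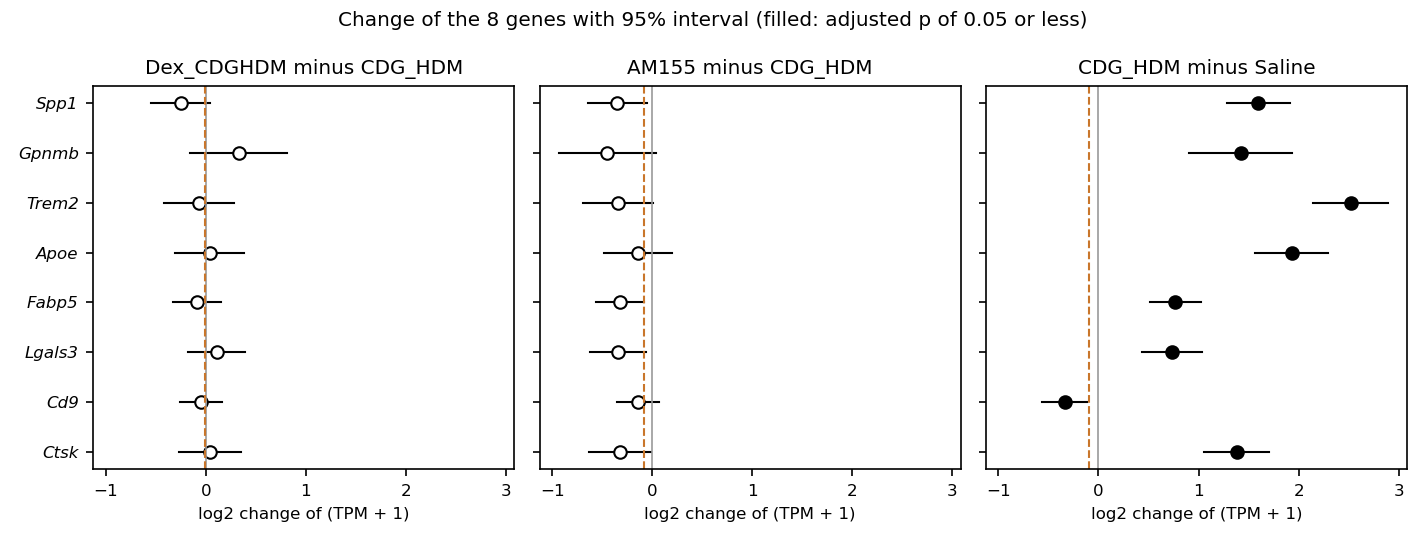
Log2 change of (TPM + 1) of the 8 genes in 3 comparisons (linear axis of log2 values), with the 95% interval of the model; filled points passed an adjusted p of 0.05 over all genes and the dashed line is the median of all genes. All 8 pass for CDG_HDM against Saline (Cd9 not with a common sum); none passes for Dex_CDGHDM or AM155 against CDG_HDM.

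The treatments were also set against each other. In Dex_CDGHDM against AM155 none of the 8 passed, where 0.0803% of all genes did. As deposited, all 8 values were positive, where 23.8% of all genes were negative, and the median was 0.25, against 0.06. With median-of-ratios scaling, quantile normalization and a common sum the median of the 8 was 0.18, 0.17 and 0.18. That of all genes was then 0.003, 0.006 and 0.0006, and Cd9 was negative with quantile normalization. Gpnmb had 17.8, 37.6 and 64.1 TPM in Dex_CDGHDM, against 13.4, 18.3 and 29.9 TPM in AM155, with 4 of 6 Dex_CDGHDM libraries above the highest AM155 library. Its log2 change of 0.78 ± 0.265 was the rank of 12 from the top among 17433 genes (adjusted p = 0.399; exact permutation test of this gene alone, two-sided p = 0.0368). Lgals3 had 204, 277 and 349 TPM in Dex_CDGHDM, against 162, 188 and 256 TPM in AM155 (0.45 ± 0.156, adjusted p = 0.406; exact p = 0.0216). Ctsk had 43.4, 56.7 and 77.5 TPM in Dex_CDGHDM, against 36.1, 44.1 and 51.4 TPM in AM155 (0.36 ± 0.169, adjusted p = 0.669; exact p = 0.0368). These 3 of the 8 were the ones with an unadjusted p under 0.05 in the model, against 7.37% of all genes in either direction. All these p-values are for values as deposited. Counted from the lowest model p, Gpnmb went from rank 281 to 1074, 1085 and 717 under median-of-ratios, quantile and common sum scaling. Lgals3 went from 305 to 1541, 1449 and 843, and Ctsk from 1100 to 3720, 3822 and 2744.

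Both treated groups still differed from Saline for most of the 8 genes, with the same 5 Saline libraries used in each case. In Dex_CDGHDM against Saline 7 of the 8 rose and Cd9 fell, where 7.59% of all genes were higher and 17.5% lower. The 7 did not overlap with Saline, which 5.28% of all genes did. In AM155 against Saline 6 rose and Cd9 fell, where 7.82% were higher and 32.7% lower. The fall of Cd9 did not pass with a common sum in Dex_CDGHDM (adjusted p = 0.118) or AM155 (adjusted p = 0.0799), nor without Dex_CDGHDM 3 in Dex_CDGHDM against Saline (adjusted p = 0.0565). Trem2 was at 2.45 ± 0.201 in Dex_CDGHDM and 2.18 ± 0.201 in AM155, Apoe at 1.97 ± 0.196 and 1.79 ± 0.196, Spp1 at 1.34 ± 0.170 and 1.25 ± 0.170, and Gpnmb at 1.75 ± 0.278 and 0.97 ± 0.278. Lgals3 rose in Dex_CDGHDM (0.84 ± 0.163) and was at 0.40 ± 0.163 in AM155 (adjusted p = 0.0527). All 6 AM155 libraries were nevertheless above the highest Saline library for Lgals3, as for 4.31% of all genes, and it passed under each of the 3 other scalings (adjusted p 0.00102 to 0.00800). Fabp5 overlapped between AM155 and Saline, with 5 of 6 AM155 libraries above the highest Saline library. Cd9 overlapped between Dex_CDGHDM and Saline, with 5 of 6 Dex_CDGHDM libraries below the lowest Saline library.

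The libraries differed in how much of the TPM scale the linear table held, since the deposited linear and circular values and transcripts outside both share it. The linear values summed to 629255 to 767849 TPM in Dex_CDGHDM, 542173 to 770856 in AM155, 628077 to 798332 in CDG_HDM and 806331 to 858363 in Saline. Circular RNA of the surfactant gene Sftpc took 17.7% to 19.8% of the scale in AM155 5, AM155 6 and Dex_CDGHDM 4, and at most 6.15% in the other 24 libraries. Without these 3 libraries the median of the 8 genes in AM155 against CDG_HDM was -0.22, with 0 called and all 8 negative. Depth is unknown, because TPM does not keep the number of reads.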

How the data were processed

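The authors deposited TPM per gene symbol and library, in a table of linear RNA and a table of circular RNA. Per the submitters' processing notes the build was mm10 (GRCm38) and CASAVA 1.9 was used; of aligner, quantifier, annotation and filters, each is not given in the sources used here. Per the labels' protocols, ribosomal RNA was depleted and libraries were stranded and paired-end. Columns were matched to samples by the names in the labels.

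Linear values were taken as log2(TPM + 1). Genes reaching 1 TPM in 5 or more of 27 libraries were kept (17433 of 21742 rows; 4 rows with a duplicated symbol were dropped). A fold is 2 to the power of that difference and understates the change of low genes. All libraries entered 1 model with limma 3.58.1 (R 4.3.3, eBayes with a trend), tested from both sides and adjusted over all genes tested by Benjamini-Hochberg at 0.05; the code was tested on simulated data. Comparison with macrophage markers subtracted, in each library, the mean of the markers. TPM is a share: a change in the transcripts outside the tables moves every value, so 3 other scalings were run.

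The 8 genes and the companion and marker lists were chosen with earlier results of these data known. The text names the 8, up to 4 genes of each list with the largest change, and direct partners of the 8; Trem1, Tfeb, Tfe3, Plin2 and others completing a count of 5 or fewer were named after their values were seen. The 3 libraries high in circular Sftpc were left out as an alternative chosen after seeing the data. Promoter and microRNA sequences are from RefSeq, positions from GENCODE M21.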

Additional observations from a re-analysis of the deposited data

Results flagged for a closer look

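Gpnmb stood apart in 1 library. CDG_HDM 4 had 65.5 TPM, against 38.9 TPM in the next of the 10 CDG_HDM libraries, a gap of 0.534 of the group's range (Dixon's critical value 0.466). This was the only one of 32 groups of values tested in this way that was marked, and chance marks about 1 in 20. Without that library Gpnmb was at 1.29 in CDG_HDM against Saline (adjusted p = 5.27e-05), -0.31 in AM155 against CDG_HDM and 0.46 in Dex_CDGHDM against CDG_HDM, the calls being as before.

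The table of circular RNA, used above only for circular Sftpc, held values for Apoe and Ctsk. Circular Apoe reached 54.7 TPM in CDG_HDM 5, with 13.2 TPM in the next library and a median of 0.132, was above 0 in 14 of 22 libraries of Dex_CDGHDM, AM155 and CDG_HDM, and was listed at 0 in all 5 of Saline. Circular Ctsk was listed above 0 in 1 of the 22, at 3.23 TPM in CDG_HDM 8, and at 0 in all 5 of Saline. The table gives no junction, so no particular circular RNA is named.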

How the results depend on the processing

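Over 1304 values recomputed for the 8 genes under other settings, 1265 kept their direction and side of the threshold and 39 did not. The 7 rises in CDG_HDM against Saline passed under every setting run; the fall of Cd9 was lost (0 members lower) with a common sum, under the replicate block, without Saline 8 and without Saline 10, and leaving out single libraries gave 0 to 1. In Dex_CDGHDM against Saline it was likewise lost with a common sum, under the block and without Dex_CDGHDM 3 (0 to 1), and in AM155 against Saline with a common sum (0). No member passed in AM155 or Dex_CDGHDM against CDG_HDM, or in Dex_CDGHDM against AM155, in any refit of the model. Values near 0 changed sign: for Dex_CDGHDM against CDG_HDM, Trem2 to 0.0229 with library weights and to 0.0933 without the 3 libraries high in circular Sftpc; for Dex_CDGHDM against AM155, Cd9 to -0.00858 with quantile normalization. Leaving out single libraries in Dex_CDGHDM against CDG_HDM gave Apoe between -0.0641 and 0.179, Ctsk between -0.0496 and 0.115 and Trem2 between -0.162 and 0.0933. The cause of these changes was not tested.

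Replicate numbers were not taken as pairs in the main model. Over shared numbers, correlations of deviations ran from -0.239 to 0.274, which does not settle whether the numbers pair the libraries. With the number as a replicate block, genes called were 3313 in CDG_HDM against Saline, 10 in AM155 against CDG_HDM, 0 in Dex_CDGHDM against CDG_HDM and 2814 in Dex_CDGHDM against Saline, and under this block Spp1 was at 0.00203 in AM155 against CDG_HDM and -0.0162 in Dex_CDGHDM against AM155, and Cd9 at 0.0212 and Spp1 at -0.0142 in Dex_CDGHDM against CDG_HDM; the median of the 8 genes in AM155 against CDG_HDM was -0.15 with 7 negative, against -0.33 with 8 negative without the block.

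Counts over all genes moved more. CDG_HDM against Saline gave 5605 genes, 9819 with library weights and 8656 without Saline 4 and AM155 6. Dex_CDGHDM against Saline gave 4374, 9081 with weights and 7652 without those 2 libraries. AM155 against Saline gave 7057, and 4517 without the 3 libraries high in circular Sftpc. AM155 against CDG_HDM gave 18, then 34, 33 and 38 under median-of-ratios, quantile and common sum scaling, 28 without Saline 4 and AM155 6, and 7 to 21 without single libraries. Dex_CDGHDM against CDG_HDM gave 1, then 48, 63 and 35 under the 3 scalings, 11 with weights, 2 with no filter or with only the groups compared, 3 without the 3 libraries, 0 with a pseudocount of 0.1, a 5 TPM filter or no trend, and 0 to 2 without single libraries. Dex_CDGHDM against AM155 gave 14, then 103, 115 and 63 under the 3 scalings, 26 with weights, 22 with only the groups compared, 3 without the 3 libraries and 9 to 34 without single libraries. The unknown depth sets no limit that can be stated here.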
